A study of Mus musculus with 13 samples.

Results

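The genes described here build and regulate major histocompatibility complex (MHC) class I molecules. They are 10 genes chosen by symbol, H2-K1, H2-D1, H2-T23, B2m, Tap1, Tap2, Tapbp, Psmb8, Psmb9 and Nlrc5, and all 10 were found among the 52636 genes listed for each mouse and passed the filter on low counts. The rule that chose them names the genes and uses no measured value, though it was set with earlier results of these data known. They were followed in RNA-Seq profiles of resident myeloid cells sorted from the cortex and hippocampus at 14 to 15 months of age. The PS2APP;Trem2wt group held 7 mice, of which 2 were males, the PS2APP;Trem2ko group held 6, of which 1 was a male, and a replicate is a mouse. Every mouse in both groups carries the PS2APP transgenes, human presenilin 2 and amyloid precursor protein genes with familial Alzheimer's disease mutations, so there is no plaque-free group here. The PS2APP;Trem2ko mice are in addition homozygous for a Trem2 null allele made on another C57BL/6 substrain than the transgenic line, and lack Trem2 in all cells throughout life. Cells were taken by FACS as CD11b+CD45+Ly6g-Ccr2-, a gate that holds microglia and can also hold macrophages at the brain's borders.

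Class I molecules show fragments of a cell's own proteins at its surface, where CD8 T cells and natural killer cells read them. Proteins are cut by the proteasome, the TAP transporter carries the peptides into the endoplasmic reticulum, a loading complex places them on a heavy chain paired with β2-microglobulin, and the finished complex goes to the plasma membrane. Interferons raise the transcription of most of these genes, partly through the transactivator NLRC5, and resting microglia are generally described as holding low levels that increase with age and inflammation.

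Expression is given as nRPKM, an RPKM value (reads scaled to gene length and library size) adjusted by a size factor. Levels can be compared between mice and, less closely, between genes. Only uniquely aligned reads were counted, so a gene that shares sequence with other genes can read too low. Total counts ranged from 26120961 to 120569609 per mouse, and the smallest count of any of the 10 genes was 594, for Nlrc5, so counting error is small beside the spread between mice. Trem2 itself was measured first. Its nRPKM lay between 818 and 1244 in the PS2APP;Trem2wt mice and between 0.393 and 2.29 in the PS2APP;Trem2ko mice, and all 13 mice matched their labels. The 8 microglia markers summed to between 12876 and 15383 nRPKM in every mouse, and 1 of them was called lower in PS2APP;Trem2ko mice. The 6 border macrophage markers reached at most 41.2 and the 5 T and NK cell markers at most 5.04. The neutrophil markers were higher, with sums up to 213.8 in PS2APP;Trem2wt and up to 36.24 in PS2APP;Trem2ko mice. Neural and glial markers reached 52.03, B cell markers 23.28 and monocyte markers 21.47, and endothelial and dendritic cell markers stayed below these. The levels are those of a pool of cells, in which fewer cells of a type and less RNA per cell cannot be told apart.

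The order of the levels in these cells followed the parts of the complex. B2m, the light chain shared by all class I molecules, had a mean nRPKM of 2429.7 ± 751 (SD, n = 13), the 10th highest of the 17086 genes tested. The classical heavy chains came next, H2-D1 with 642 ± 319.9 (SD, n = 13) and H2-K1 with 292 ± 154 (SD, n = 13), and the order B2m over H2-D1 over H2-K1 held in all 13 mice. Tapbp, which encodes tapasin, the chaperone that bridges the transporter and the empty heavy chain, followed with 189.8 ± 25 (SD, n = 13), below H2-K1 in 10 of the 13 mice. H2-T23, the heavy chain of the nonclassical molecule Qa-1, had 94.8 ± 32.9 (SD, n = 13) and the immunoproteasome subunit gene Psmb8 had 86.8 ± 15.9 (SD, n = 13). These neighbours did not differ beyond their spread, H2-T23 being the higher in 7 of 13 mice. Tap2 with 35.0 ± 6.84, Psmb9 with 28.7 ± 8.0 and Tap1 with 26.0 ± 10.1 (SD, n = 13) formed a lower tier, Tap1 and Tap2 encoding the 2 chains of the peptide transporter. Their standard deviations overlap, with Tap2 above Psmb9 in 10 mice and Psmb9 above Tap1 in 12. Nlrc5, the regulator, was lowest by far with 3.61 ± 2.16 (SD, n = 13), rank 7465 of 17086.

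The sequences upstream of the heavy chain and light chain genes are shown because these genes are known to be controlled through short shared elements, and because the genes moved together between mice as described later. A link between these elements and that movement was not tested. Of the 10 genes, 8 have a RefSeq entry (GRCm38.p6). The 250 bases before the start of H2-K1 (chr17:34000348-34000597, minus strand) and of B2m (chr2:122147437-122147686, plus strand) read, with matches to 4 motifs in capitals:
H2-K1: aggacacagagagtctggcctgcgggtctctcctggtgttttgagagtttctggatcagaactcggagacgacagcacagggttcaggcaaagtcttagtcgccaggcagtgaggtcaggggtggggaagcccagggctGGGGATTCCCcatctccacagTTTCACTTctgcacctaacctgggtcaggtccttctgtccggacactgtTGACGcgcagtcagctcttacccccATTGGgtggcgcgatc
B2m: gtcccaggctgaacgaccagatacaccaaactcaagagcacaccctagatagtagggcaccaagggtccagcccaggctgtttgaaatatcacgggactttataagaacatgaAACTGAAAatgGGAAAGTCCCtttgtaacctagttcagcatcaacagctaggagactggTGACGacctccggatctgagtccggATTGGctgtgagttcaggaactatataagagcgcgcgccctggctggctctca

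The motifs were searched on both strands in the 250 bases upstream of each RefSeq start, and did not overlap in these stretches. They were a κB motif (GGG, any 2 bases, TT, any base, CC), an interferon regulatory factor core (AANNGAAA), TGACG as in the X box and CCAAT as in the Y box of MHC promoters, the box pair on which NLRC5 and the RFX, CREB and NF-Y factors are known to assemble. Of all 32851 RefSeq stretches of the same length, 4.11% held the κB motif, 21.3% the interferon regulatory factor core, 17.8% TGACG and 33.8% CCAAT. H2-D1 held all 4 as well, and the H2-K1 and H2-D1 stretches had the same base at 166 of 190 aligned positions, 87.4%. In GENCODE the whole stretches of H2-D1, Psmb9 and Psmb8 and parts of those of Tapbp and H2-T23 lie in exons of transcripts that begin farther out. For these genes they are therefore not upstream of every start. The stretch of Tap1 lies within the span of Psmb9, a gene on the opposite strand. The shared elements of the 3 genes compare as follows, first the κB and interferon elements and then the box pair:
H2-K1 κB and interferon: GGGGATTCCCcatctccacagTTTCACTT
H2-D1 κB and interferon: GGGGATTCCCcatctcctcagTTTCACTT
B2m κB and interferon: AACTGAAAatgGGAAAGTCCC
H2-K1 box pair: TGACGcgcagtcagctcttacccccATTGG
H2-D1 box pair: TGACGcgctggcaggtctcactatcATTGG
B2m box pair: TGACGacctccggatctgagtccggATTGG

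In B2m the interferon element comes before the κB element, in the heavy chain genes after it. The spacing of the box pair was the same in all 3 genes, TGACG and ATTGG with 20 bases between them, a pattern noticed in these sequences and found in 30 of the 32851 stretches (0.0913%) on either strand, with none of the other 5 class I presentation genes that have an entry among them. The stretches of Tap1 and Psmb9, which lie back to back on chromosome 17, held TGACG and CCAAT but neither the κB motif nor the interferon core. H2-T23 held 2 interferon cores and CCAAT, Tapbp held 2 CCAAT matches, and Psmb8 held none of the 4. A match is only a match of letters, and binding was not measured.

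The question of the genotype comparison is whether class I presentation transcripts depended on Trem2 in plaque-bearing mice. No class I presentation gene was called different between PS2APP;Trem2ko and PS2APP;Trem2wt microglia. With edgeR's quasi-likelihood test and a threshold of 0.05 on the adjusted p, none of the 10 was called higher and none lower, where 0.503% of all 17086 genes were called higher and 1.53% lower, 2.04% in either direction and 0.743% in either direction by at least 2-fold. The other tools run, voom with limma and DESeq2, also gave 0 calls among the 10. At an unadjusted p of 0.05 or less the 10 genes again gave 0 calls, where 14.8% of all genes passed, and the normalized counts of the genotypes overlapped for each of the 10, where 1.64% of all genes did not overlap. The 10 log2 fold changes (PS2APP;Trem2ko minus PS2APP;Trem2wt) had a median of 0.13, with 8 above 0, and the median of all genes tested was 0.0039. H2-K1, H2-D1 and Nlrc5 had the largest values and also the widest intervals. Most of the 10 genes moved together between mice, as described later, so these values are not separate results.

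H2-K1 (ENSMUSG00000061232, chromosome 17 of GRCm38, 33996017 to 34000347) encodes the K heavy chain that presents peptides to CD8 T cells. Its nRPKM was 165 in the lowest, 244 in the median and 435 in the highest PS2APP;Trem2wt mouse, and 167, 238 and 682 in the PS2APP;Trem2ko mice. The medians were nearly the same, and 2 PS2APP;Trem2ko mice lay above every PS2APP;Trem2wt mouse while the other 4 lay among them. The log2 fold change was 0.45 (95% interval -0.21 to 1.11, SE 0.31, edgeR adjusted p = 0.540). H2-D1 (ENSMUSG00000073411, chromosome 17, 35262730 to 35267499), the D heavy chain, showed the same picture. Its nRPKM was 368, 459 and 991 in the lowest, median and highest PS2APP;Trem2wt mouse and 442, 526 and 1393 in the PS2APP;Trem2ko mice, with a log2 fold change of 0.47 (95% interval -0.16 to 1.09, SE 0.29, edgeR adjusted p = 0.496). Again 2 PS2APP;Trem2ko mice stood above all others. Of the 50-base words in their transcripts, 9.63% for H2-K1 and 12.8% for H2-D1 also occur in other genes. Since only uniquely aligned reads were counted, both genes can read too low.

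H2-T23 (ENSMUSG00000067212, chromosome 17, 36029773 to 36032855) presents signal peptides of other class I chains to NK receptors. Its nRPKM was 69.9, 82.8 and 145 in PS2APP;Trem2wt and 68.2, 78.3 and 177 in PS2APP;Trem2ko mice (lowest, median, highest), and the ranges overlapped almost fully. The log2 fold change was 0.13 (95% interval -0.34 to 0.61, SE 0.22, edgeR adjusted p = 0.836), and 14.5% of its 50-base words are shared with other genes. B2m (ENSMUSG00000060802, chromosome 2, 122147686 to 122153083) had an nRPKM of 1750.4, 2229 and 4089 in PS2APP;Trem2wt and 1695, 2103 and 3797 in PS2APP;Trem2ko mice. The highest mouse of all was a PS2APP;Trem2wt mouse. The log2 fold change of B2m was -0.04 (SE 0.21, 95% interval -0.48 to 0.40, adjusted p = 0.957 from edgeR), and none of its words is shared.

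The transporter genes were close to even. Tap1 (ENSMUSG00000037321, chromosome 17, 34187553 to 34197225) had an nRPKM of 18.6, 21.0 and 46.8 in PS2APP;Trem2wt and 18.5, 22.5 and 45.6 in PS2APP;Trem2ko mice, a log2 fold change of 0.20 (95% interval -0.32 to 0.72, SE 0.25, edgeR adjusted p = 0.765). Apart from 1 PS2APP;Trem2wt mouse and 2 PS2APP;Trem2ko mice, all mice lay between 18.5 and 23.1 nRPKM. Tap2 (ENSMUSG00000024339, chromosome 17, 34203527 to 34216321) had 27.7, 33.0 and 52.5 in PS2APP;Trem2wt and 29.0, 34.6 and 42.7 nRPKM in PS2APP;Trem2ko mice, a log2 fold change of 0.0079 (95% interval -0.29 to 0.31, SE 0.14, edgeR adjusted p = 0.986). Tapbp (ENSMUSG00000024308, chromosome 17, 33915899 to 33929292) was the steadiest gene of the 10. It had 175, 193 and 259.8 nRPKM in PS2APP;Trem2wt and 156, 181 and 199 in PS2APP;Trem2ko mice, with 3 PS2APP;Trem2ko mice below all PS2APP;Trem2wt mice. Its log2 fold change was -0.13 (95% interval -0.33 to 0.07, SE 0.09, edgeR adjusted p = 0.554), and 23.2% of its words are shared, mostly with the antisense gene Gm19412, which cannot be told apart where the counting strand is not given.

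The immunoproteasome genes replace standard catalytic subunits and favour the peptide ends that class I molecules bind. Psmb8 (ENSMUSG00000024338, chromosome 17, 34197721 to 34201454) had an nRPKM of 69.0, 84.9 and 103 in PS2APP;Trem2wt and 68.6, 77.3 and 119 in PS2APP;Trem2ko mice, a log2 fold change of 0.04 (95% interval -0.25 to 0.32, SE 0.13, edgeR adjusted p = 0.940). Psmb9 (ENSMUSG00000096727, chromosome 17, 34181987 to 34187764) had 20.9, 25 and 36.6 in PS2APP;Trem2wt and 19.6, 25.5 and 46.8 nRPKM in PS2APP;Trem2ko mice, a log2 fold change of 0.12 (95% interval -0.29 to 0.52, SE 0.19, edgeR adjusted p = 0.832). For both, 2 PS2APP;Trem2ko mice were above every PS2APP;Trem2wt mouse and 1 was below every one. Of Psmb8's words 11.9% are shared, mostly with Gm20496. Nlrc5 (ENSMUSG00000074151, chromosome 8, 94434356 to 94527272), which drives class I promoters, varied most, with 1.70, 2.60 and 5.73 nRPKM in PS2APP;Trem2wt and 1.37, 3.15 and 8.92 in PS2APP;Trem2ko mice. Its log2 fold change was 0.45 (95% interval -0.35 to 1.26, SE 0.38, edgeR adjusted p = 0.628), the widest interval of the 10. The plot of nRPKM by mouse shows all 10 genes.

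**Figure D1:**
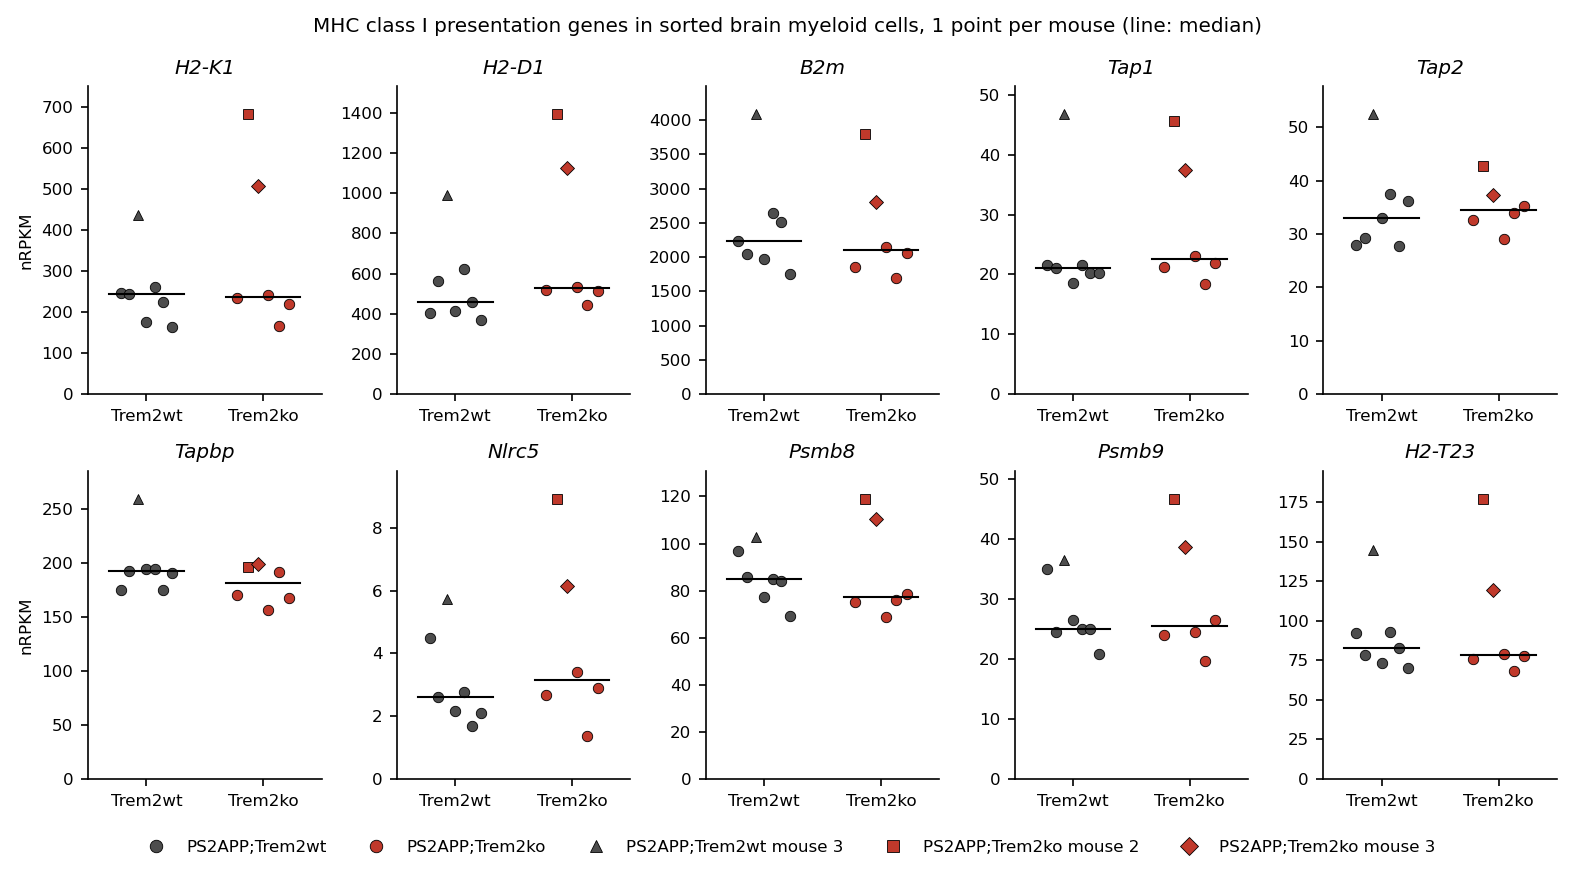
nRPKM of the 10 class I presentation genes in each mouse (vertical axes, linear from 0), with PS2APP;Trem2wt in grey and PS2APP;Trem2ko in red, 1 point per mouse and a line at the genotype's median. The triangle, square and diamond mark PS2APP;Trem2wt mouse 3 and PS2APP;Trem2ko mice 2 and 3, which lie at the top for most genes, while the genotype medians are close (244 and 238 nRPKM for H2-K1).

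The larger feature of these genes was the spread between mice of the same genotype. PS2APP;Trem2wt mouse 3 and PS2APP;Trem2ko mice 2 and 3 were the 3 highest of the 13 mice for 9 of the 10 genes, all but Tap2, for which PS2APP;Trem2ko mouse 3 ranked 4 of 13. All 3 are females, and the males ranked 6, 12 and 13 of 13 by the mean of the 10 genes. PS2APP;Trem2ko mouse 2 had 2.87 times its genotype's median for H2-K1, 2.65 times for H2-D1 and 2.84 times for Nlrc5, with a median of 1.93 times over the 10 genes. PS2APP;Trem2wt mouse 3 had 1.79, 2.16 and 2.20 times its genotype's median for the same genes and 2.22 times for Tap1, with a median of 1.77 times. PS2APP;Trem2ko mouse 3 had 2.13 times the median for H2-K1 and 1.95 times for Nlrc5, with a median of 1.52 times. Tapbp moved least in them, at 1.08, 1.34 and 1.1 times the genotype's median in PS2APP;Trem2ko mouse 2, PS2APP;Trem2wt mouse 3 and PS2APP;Trem2ko mouse 3. The total counts of these 3 libraries, 61856493, 79883820 and 41567025, lay inside the range of the other mice.

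The spread within genotypes was wide for most of the 10 genes beside other genes, which were not matched to the level of each gene. The standard deviation of log2 normalized counts within genotypes was 0.79 for Nlrc5, 0.63 for H2-K1, 0.60 for H2-D1 and 0.49 for Tap1. Among the 4296 genes at least as abundant in CPM (counts scaled to library size) as the lowest of the 10, these lay at percentiles 99.7, 99.4, 99.2 and 98.8. B2m, H2-T23 and Psmb9 lay between percentiles 97.9 and 98.5. Psmb8 at 0.26 and Tap2 at 0.28 lay at percentiles 90.6 and 92.2, and Tapbp at 0.17 was near the middle, at 58.8.

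Values from the genotype comparison moved with these mice. Without PS2APP;Trem2ko mouse 2 the log2 fold change of H2-K1 was 0.13, of H2-D1 0.20 and of Nlrc5 0.09, and without PS2APP;Trem2wt mouse 3 they were 0.64, 0.68 and 0.68. Without all 3 mice, a choice made after their values were seen, they were -0.03, 0.09 and -0.03, and 3 of the 10 values were above 0 with a median of -0.08. The number of the 10 genes called was 0 in each of these fits. The plot of fold changes shows these values for every gene.

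**Figure D2:**
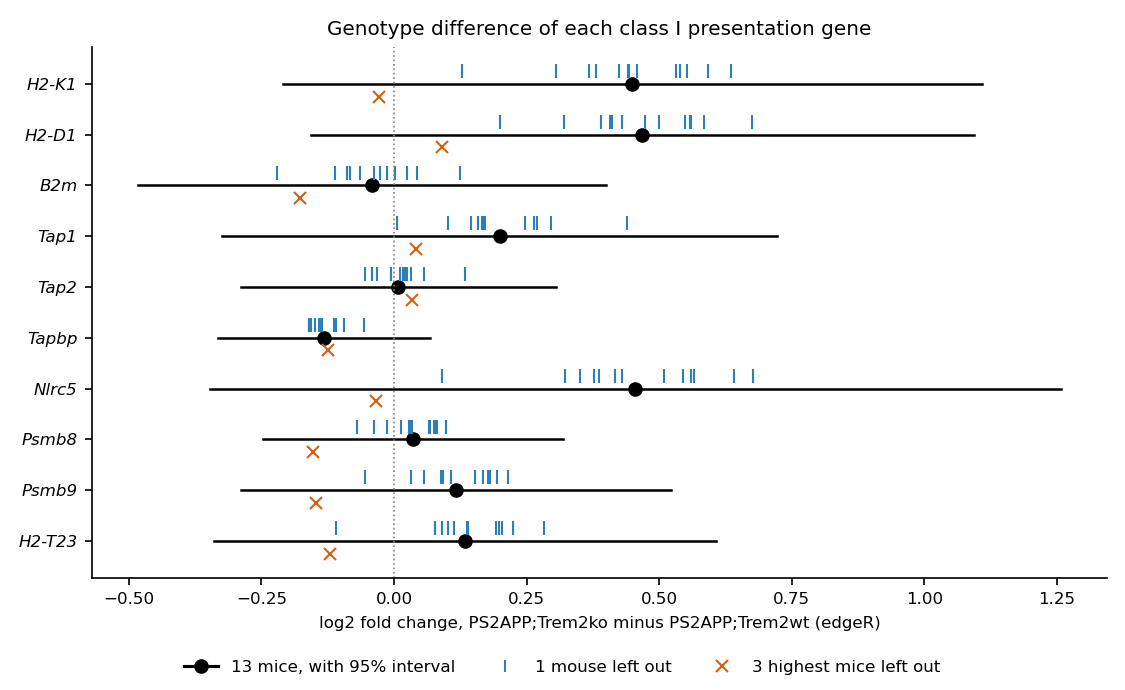
Log2 fold change of each class I presentation gene between PS2APP;Trem2ko and PS2APP;Trem2wt microglia (horizontal axis), with black points and bars for the edgeR estimate over 13 mice and its 95% interval, blue ticks for the 13 fits that each left out 1 mouse and orange crosses for the fit without the 3 highest mice. Every interval includes 0, and for H2-K1 the estimate runs from 0.13 to 0.64 as single mice are left out.

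Across mice the genes moved as a block with 2 exceptions, Tap2 and Tapbp, which were set apart after the values were seen. After each gene was centred within genotype, the correlation of log2 normalized counts between 2 genes over 13 mice was between 0.82 and 0.97 for the 28 pairs without Tap2 and Tapbp, and between 0.46 and 0.89 for the 17 pairs with either. These values rest on the 3 high mice, which stand apart from the rest. In the other 10 mice, correlations among the same 28 pairs were between 0.03 and 0.87 with a median of 0.62, led by H2-K1 and H2-T23 (0.87), B2m and H2-T23 (0.86) and Nlrc5 and Psmb9 (0.80). The 17 pairs with Tap2 or Tapbp had a median of -0.38 in the other 10 mice, while Tap2 and Tapbp correlated with each other at 0.66. All these points share libraries and scaling, and the correlations are given as descriptions.

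Genes outside the 10 were ranked by how closely their log2 normalized counts followed the mean of the 10 over 13 mice, each gene centred first, among 9952 genes with a mean of at least 5 CPM. Among the 5 closest were Oas1a (Pearson's r 0.96, Spearman's rho 0.81), which makes the messenger that activates RNase L, Gbp2 (0.96, 0.93), a guanylate-binding protein of cell defence, Fgl2 (0.95, 0.85), a fibrinogen-like protein, and Zbp1 (0.95, 0.79), a sensor of Z-form nucleic acid. In the other 10 mice alone r was 0.68, 0.80, 0.60 and 0.70. Of the 50 closest genes, 12 were on the list of 21 interferon-induced genes and 4 were other class I heavy chains. The median r of the 19 listed interferon-induced genes that were ranked was 0.89, beside -0.02 over all ranked genes. Neither Oas1a, Gbp2, Fgl2 nor Zbp1 was called between genotypes, with adjusted p-values from 0.576 to 0.747 from edgeR.

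The summed level of T and NK cell markers was also highest in these mice. The 5 markers (Cd3e, Cd3d, Cd8a, Nkg7 and Ncr1) summed to 5.04 nRPKM in PS2APP;Trem2ko mouse 2, 3.07 in PS2APP;Trem2wt mouse 3 and 2.91 in PS2APP;Trem2ko mouse 3, and to between 0.275 and 2.29 in the other 10 mice. Nkg7, a granule protein of cytotoxic cells, had 3.37, 2.02 and 2.12 nRPKM in them, and they were the 3 highest mice for Nkg7 and Cd3e. They were not the 3 highest for the other markers. Cd8a had 0.383, 0.269 and 0.213 nRPKM in them and 0.297 in PS2APP;Trem2wt mouse 1. Cd3d ranked 1, 3 and 5 of 13 in them, and Ncr1 was at 0 in both PS2APP;Trem2ko mice 2 and 3. Cd3e, Cd3d and Cd8a were at 0 in PS2APP;Trem2ko mouse 5 and Cd8a also in PS2APP;Trem2wt mouse 5. None of the 5 was called between genotypes, no marker was at 0 in every mouse, and by genotype the sum ranged from 0.343 to 3.07 in PS2APP;Trem2wt and from 0.275 to 5.04 in PS2APP;Trem2ko mice. Border macrophage markers were highest in PS2APP;Trem2ko mouse 3 (41.2 nRPKM) but at rank 10 of 13 in PS2APP;Trem2ko mouse 2, and microglia markers were at rank 10, 3 and 11 in PS2APP;Trem2ko mouse 2, PS2APP;Trem2wt mouse 3 and PS2APP;Trem2ko mouse 3. In the same order, monocyte markers were at rank 5, 4 and 2, and neural and glial markers at rank 9, 1 and 2. Of the 4 monocyte markers, Plac8 was highest in these 3 mice, with 2.09, 1.32 and 4.65 nRPKM. Ly6c2 ranked 3, 2 and 4 in them, Ccr2 9, 3 and 1, and Chil3 9, 5 and 3. The part of any of these cell types in the class I levels was not tested.

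**Figure D3:**
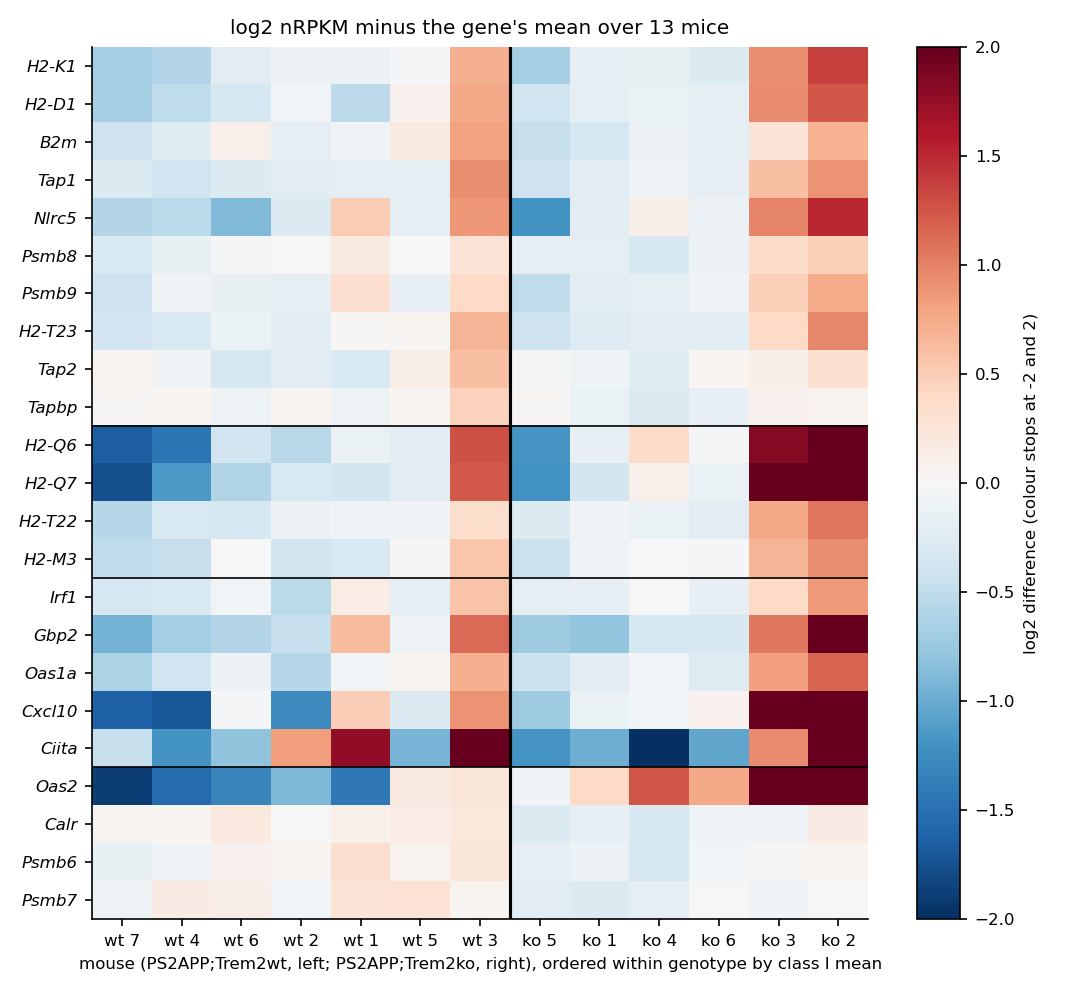
Difference of log2 nRPKM from the mean of the gene in all 13 mice (colour, stopping at -2 and 2) for the 10 class I presentation genes, 4 other heavy chains, 5 interferon-related genes and 4 further genes of the text (rows), in each mouse (columns, ordered within genotype by the mean of the 10 genes). PS2APP;Trem2wt mouse 3 and PS2APP;Trem2ko mice 2 and 3 are red in most rows from H2-K1 to Ciita, and Tapbp is pale in all but PS2APP;Trem2wt mouse 3. The 4 further genes are Oas2, which is also interferon-induced, Calr, Psmb6 and Psmb7.

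The wider pathway was taken from 7 lists of 71 genes other than the 10, of which 65 passed the filter on low counts. Of these, 1 was called higher in PS2APP;Trem2ko microglia, Oas2, and 1 lower, Nfya, by the same threshold, where 0.503% and 1.53% of all genes were called. Oas2 (chromosome 5, 120730333 to 120749853), an interferon-induced enzyme of the same family as Oas1a, had an nRPKM of 0.362, 0.533 and 1.58 in the lowest, median and highest PS2APP;Trem2wt mouse and 1.27, 2.74 and 6.33 in the PS2APP;Trem2ko mice. Of the 6 PS2APP;Trem2ko mice, 5 lay above all PS2APP;Trem2wt mice. The log2 fold change was 2.06 (edgeR adjusted p = 0.0204, SE 0.43), and without the 3 high mice it was 1.64 with an adjusted p of 0.0537. The call was also lost with voom and limma, at a log2 difference of 1.94 and an adjusted p of 0.0579.

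Nfya encodes a subunit of NF-Y, which binds CCAAT. Its nRPKM was 1.63, 2.47 and 3.12 in PS2APP;Trem2wt and 1.03, 1.53 and 1.76 in PS2APP;Trem2ko mice, with 2 PS2APP;Trem2ko mice inside the range of PS2APP;Trem2wt, and a log2 fold change of -0.74 (edgeR adjusted p = 0.0319, SE 0.17). Nfya lies 32.7 kb from the end of Trem2 on chromosome 17 (48386885 to 48409906), and an effect of the deleted allele on its neighbour cannot be told apart here from other effects of the genotype. Without the 3 high mice its log2 fold change was -0.74 with an adjusted p of 0.124. The call was also lost when any 1 of PS2APP;Trem2wt mice 3, 5, 6 and 7 or PS2APP;Trem2ko mice 1, 3, 5 and 6 was left out. The other NF-Y subunit genes, Nfyb and Nfyc, had log2 fold changes of -0.05 and -0.02. The 8 class I presentation genes of chromosome 17 lie farther from Trem2, between 12.3 and 14.4 Mb away. Of the 117 tested genes in the stretch that holds them (33915899 to 36032855) 0 were called higher and 0 lower. Since 2.04% of all genes were called, few calls would be due among 117, so the count does not set this stretch apart. An effect of linked sequence on these genes was not tested.

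Among the other class I heavy chains, 8 of 13 were tested. All 8 log2 fold changes were above 0 with a median of 0.52, where 8666 of all 17086 genes were above 0, and none was called. Most of these genes were highest in the same 3 mice, so the 8 values are not separate results. H2-Q7, a Qa-2 heavy chain, had 1.5, 3.96 and 11.9 nRPKM in PS2APP;Trem2wt and 2.19, 5.05 and 30.9 in PS2APP;Trem2ko mice, a log2 fold change of 1.37 (edgeR adjusted p = 0.292, SE 0.60). PS2APP;Trem2ko mouse 2 was 6.12 times its genotype's median, and the medians of the genotypes were close. H2-Q6, which encodes a closely related Qa-2 chain, had 5.18, 12.4 and 39.0 in PS2APP;Trem2wt and 7.15, 18.4 and 78.8 nRPKM in PS2APP;Trem2ko mice, a log2 fold change of 1.15 (edgeR adjusted p = 0.339, SE 0.54). These genes share 26.5% and 35.0% of their 50-base words with other genes, so they are uncertain one by one. H2-T22 and H2-Q4 had log2 fold changes of 0.43 and 0.48, with 53.5% and 36.4% of words shared. H2-M3, which presents formylated peptides, had 0.37 and H2-T24 had 0.02 (edgeR adjusted p = 0.472 and 0.963). Without the 3 high mice, all 8 values stayed above 0 with a median of 0.23. As single mice were left out, 7 or 8 of the 8 were above 0. Without PS2APP;Trem2ko mouse 2 it was 7, with a median of 0.34.

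Class I-like molecules gave 4 of 4 values below 0 (median -0.12) and no call, where 8420 of all 17086 genes were below 0. Fcgrt, the neonatal Fc receptor chain that also pairs with β2-microglobulin, had a log2 fold change of -0.20 (edgeR adjusted p = 0.176, SE 0.07). The 5 peptide loading and trimming genes were all below 0 with a median of -0.08, and none was called. Calr, the chaperone calreticulin of the loading complex, had -0.23 (edgeR adjusted p = 0.162), Canx -0.09, Pdia3 -0.06, the trimming peptidase gene Erap1 -0.08 and the peptide editor gene Tapbpl -0.0026. Apart from Nfya, none of the 14 listed regulators of class I genes was called, and their median was -0.04. Irf1, an interferon-induced activator of class I promoters, had 0.23 and Rfx5 0.0097 (adjusted p 0.637 and 0.979 in edgeR). Ciita, the class II counterpart of Nlrc5, had -0.11 (edgeR adjusted p = 0.968, SE 0.80). Its nRPKM was 2.29 in PS2APP;Trem2ko mouse 2 and 1.89 in PS2APP;Trem2wt mouse 3, against genotype medians of 0.165 and 0.240. PS2APP;Trem2ko mouse 3 had 0.639 and ranked 4 of 13.

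All 21 listed interferon-induced genes were tested. All 21 log2 fold changes were above 0 with a median of 0.55, where 8666 of all 17086 genes were above 0, and Oas2 was the one called. Examples are Cxcl10 (1.25), a chemokine for activated T cells, Rsad2 (0.92) and Mx1 (0.90), antiviral proteins, and Ifit3 (0.73) (adjusted p 0.288, 0.263, 0.169 and 0.316 in edgeR). Without PS2APP;Trem2ko mouse 2 the list had 18 values above 0 with a median of 0.23, and without the 3 high mice 17 with a median of 0.18. These genes moved together between mice (median r of 0.89 with the class I mean for the 19 ranked). The 21 values are therefore not separate results. The 8 interferon receptors and signal transducers had a median of 0.04 and no call.

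**Figure D4:**
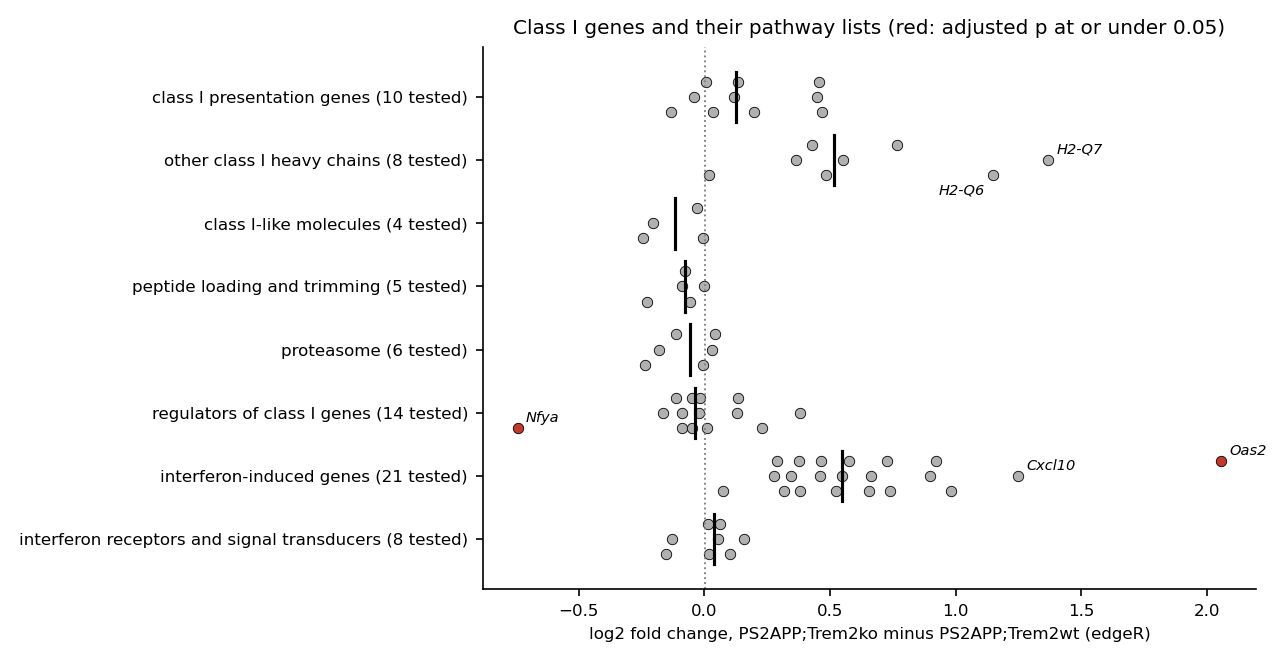
Log2 fold change between PS2APP;Trem2ko and PS2APP;Trem2wt microglia (horizontal axis) of every tested gene of the class I presentation genes and the 7 pathway lists, 1 point per gene, with a black bar at the list's median and a dotted line at the median of all genes. Red points passed the threshold of 0.05 on the adjusted p (Oas2 and Nfya), and the other class I heavy chains and the interferon-induced genes lie to the right of 0 with medians of 0.52 and 0.55.

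The balance of immunoproteasome to standard subunits was compared within each mouse, since a ratio of 2 genes in 1 library does not depend on scaling. Psmb10 to Psmb7 was the ratio that differed. It was 3.59, 3.98 and 4.66 in the lowest, median and highest PS2APP;Trem2wt mouse and 4.33, 4.70 and 5.67 in the PS2APP;Trem2ko mice, and 4 of 6 PS2APP;Trem2ko mice were above all PS2APP;Trem2wt mice. The log2 difference was 0.28 (exact permutation of the mice, two-sided p = 0.00583, adjusted over 3 ratios 0.0175). Neither gene was called alone, with log2 fold changes of 0.04 for Psmb10 and -0.24 for Psmb7 (edgeR adjusted p = 0.905 and 0.205), so the ratio moved more with the standard subunit. Without the 3 high mice the difference was 0.21 with an adjusted exact p of 0.1. Of Psmb7's words 9.26% are shared with Nek6.

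Psmb9 to Psmb6 was 0.256, 0.265 and 0.342 in PS2APP;Trem2wt and 0.243, 0.321 and 0.498 in PS2APP;Trem2ko mice, with 2 PS2APP;Trem2ko mice above all PS2APP;Trem2wt mice. The log2 difference was 0.25 and did not pass the threshold (exact permutation, two-sided p = 0.142, adjusted 0.213). Without PS2APP;Trem2ko mouse 5, which had the lowest ratio, it was 0.35 with an adjusted exact p of 0.0455. Psmb8 to Psmb5 was 33.9, 43.8 and 66.9 in PS2APP;Trem2wt and 35.0, 46.5 and 57.0 in PS2APP;Trem2ko mice, a log2 difference of 0.0030 (exact permutation, two-sided p = 0.987). The height of that ratio is uncertain, since 54.1% of the 50-base words of Psmb5 also occur in other genes and only uniquely aligned reads were counted. The activator genes Psme1 and Psme2 had log2 fold changes of 0.03 and -0.11, and Psmb5 and Psmb6 -0.0052 and -0.18, with none called.

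**Figure D5:**
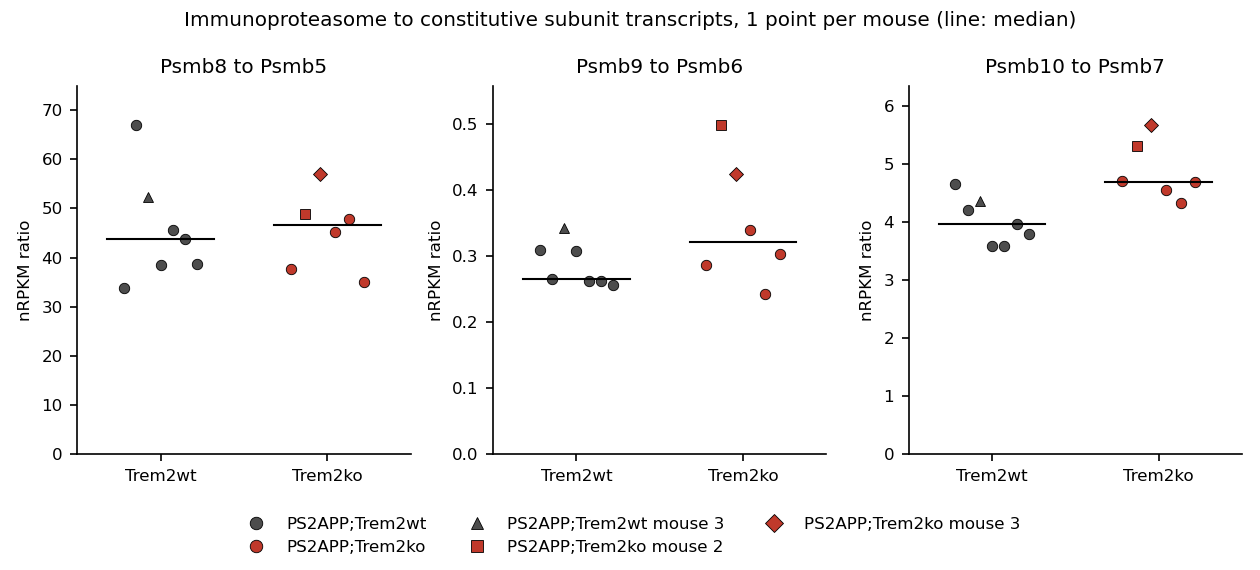
Ratio of nRPKM of each immunoproteasome gene to the standard subunit gene it replaces (vertical axes, linear from 0), 1 point per mouse, PS2APP;Trem2wt in grey and PS2APP;Trem2ko in red, with a line at the median. The Psmb10 to Psmb7 medians are 3.98 and 4.70, and the points of the other ratios overlap more.

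Ratios between parts of the complex were chosen after the values were seen and are given without a test. H2-K1 to H2-D1 was 0.421, 0.439 and 0.604 in the lowest, median and highest PS2APP;Trem2wt mouse and 0.377, 0.449 and 0.490 in the PS2APP;Trem2ko mice. B2m to the sum of H2-K1 and H2-D1 was 2.53, 3.28 and 3.67 in PS2APP;Trem2wt and 1.72, 2.61 and 2.82 in PS2APP;Trem2ko mice, so that all 6 PS2APP;Trem2ko mice were below the PS2APP;Trem2wt median while the ranges overlapped. Tap1 to Tap2 was 0.559, 0.718 and 0.891 in PS2APP;Trem2wt and 0.545, 0.723 and 1.07 in PS2APP;Trem2ko mice.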

How the data were processed

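Mice were grouped by the genotype in their labels. Per the paper's methods, single-end 50-base reads of SMART-seq libraries were cleaned of adapters, low-quality and rRNA reads and aligned to GRCm38 with GSNAP (version and strand setting not given in the sources used here). For each gene, uniquely aligned reads were counted. Deposited were these counts, not normalized, and RPKM values adjusted by a size factor (nRPKM), for 52636 Ensembl genes per mouse. Names (52403 matched) and coordinates came from GENCODE M21. The members, gene lists and tests were chosen with earlier results of these data known. The genes named are the 10 members, Trem2, every pathway gene called, a fixed set of pathway genes and the 5 genes most like the members' mean, of which 1 is not reported here. Single genes of other lists, marker genes, Nfyb, Nfyc, Cxcl10, Rsad2, Mx1 and Ifit3 were named after their values were seen.

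Counts were tested with edgeR 4.0.16 in R 4.3.3 (filterByExpr by genotype, TMM, glmQLFit and glmQLFTest, no covariate, Benjamini-Hochberg over 17086 genes). The paper's tool, voom with limma 3.58.1, DESeq2 1.42.0 and other settings were alternatives. The SE is the fold change divided by the square root of F. The test and the alternative tools were checked on simulated counts with known changes, where DESeq2 made more false calls than the others. Ratios were computed in Python 3.11.15 with exact permutation tests on log2 nRPKM ratios. Total counts were 26120961 to 120569609 per mouse, and 3 counts, between 0.0249 and 0.115 CPM, were taken as the limit of detection for counting error only. Same-genotype libraries differed by at least 18.1 times sampling noise in all 36 pairs. Sharing of sequence is the percentage of 50-base words of a gene's transcripts that another gene holds on either strand. No scan or preparation batch was given in the labels.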

Additional observations from a re-analysis of the deposited data

Results flagged for a closer look

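PS2APP;Trem2wt mouse 3 stood far above the other 6 mice of its genotype for 7 of the 10 class I presentation genes, its gap to the next mouse being more than Dixon's 95% critical share of the genotype's range. Its nRPKM was 435 for H2-K1, 991 for H2-D1, 4089 for B2m, 46.8 for Tap1, 52.5 for Tap2, 259.8 for Tapbp and 145 for H2-T23. The gap was widest for Tap1, at 0.894 of the range, where the next mouse had 21.6 nRPKM. These genes move together, so the 7 values are not separate events. No value of a PS2APP;Trem2ko mouse passed the same rule, since mice 2 and 3 of that genotype are both high and close the gap. In all, 30 sets of values were examined, and chance passes this rule in about 1 in 20 groups.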

How the results depend on the processing

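No class I presentation gene was called in any of the 23 alternatives run for each, and the lowest adjusted p over all of them was 0.274. The direction of H2-D1, Tap1 and Tapbp was the same in every alternative, though Tap1 was near 0 (0.0052) without PS2APP;Trem2ko mouse 2. That of Tap2 turned with sex as a covariate (-0.0024) and in females only (-0.015). The values of H2-K1, H2-D1 and Nlrc5 were 0.33, 0.39 and 0.27 with sex as a covariate. In females only they were 0.49, 0.50 and 0.51. Without the 3 mice highest in class I transcripts, chosen after seeing the data, the values turned for H2-K1 (-0.028), Nlrc5 (-0.034), Psmb8 (-0.15), Psmb9 (-0.15) and H2-T23 (-0.12). With each mouse left out, log2 fold changes ranged from 0.13 to 0.64 for H2-K1, 0.0052 to 0.44 for Tap1, -0.22 to 0.12 for B2m, -0.054 to 0.13 for Tap2, -0.069 to 0.10 for Psmb8, -0.054 to 0.22 for Psmb9 and -0.11 to 0.28 for H2-T23. Of the 65 pathway genes, the number called higher was 0 with voom and limma (Oas2 was lost), 2 with DESeq2 (Mx1 and Oas2) and 0 without the 3 mice. The number called lower was 0 in females only, 0 without the 3 mice, 0 with a fold threshold of 2, and 0 to 2 with each mouse left out (Calr was added without PS2APP;Trem2ko mouse 2). The cause was not tested. The Psmb10 to Psmb7 difference was 0.23 to 0.31 with each mouse left out and 0.21 without the 3 mice, where it was no longer past the threshold. The Psmb9 to Psmb6 difference was 0.14 to 0.35, past the threshold without PS2APP;Trem2ko mouse 5 alone, and the Psmb8 to Psmb5 difference was -0.067 to 0.10, and -0.080 without the 3 mice. No paired analysis was possible because the labels do not say which mice were processed together.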

Other observations

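At the other end of the ranking by likeness to the mean of the 10 genes, chosen after the values were seen, Cass4 (r -0.92 over 13 mice), Tifab (-0.91), Slc24a3 (-0.89), Tjp1 (-0.89) and Ctnnd1 (-0.89) were lowest where class I transcripts were highest. Tjp1 encodes the junction protein ZO-1 and Ctnnd1 the cadherin partner p120 catenin. In the other 10 mice alone r was -0.63, -0.63, -0.59, -0.43 and -0.21. None of the 5 was called between genotypes, and the largest log2 fold change among them in size was -0.21, for Cass4 (adjusted p = 0.715 from edgeR).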
